A study of Mus musculus with 18 samples.

Results

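The 10 genes described here are Wnt pathway genes measured in mouse myoblasts: the ligands Wnt9a, Wnt10a, Wnt4 and Wnt5a, the receptors Fzd1, Fzd2 and Fzd7, the secreted inhibitor Sfrp1, and the target genes Axin2 and Lef1. They were taken by symbol from the 19153 genes listed in each library, and all 10 were found and passed the filter on low counts, which left 17672 genes for testing. They were selected on measured levels of these libraries, above all the higher level of Wnt9a at day 2 of differentiation in both genotypes, so levels at day 2 are given below as a description, without a test. The tests concern knockout against wildtype and confluent against proliferating cells, and the other genes of the pathway.

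The cells were immortalized mouse myoblasts, all of which lack p53. Wildtype (WT) cells had received the Cas9 plasmid without a guide RNA, and LAP2alpha knockout (KO) cells were a sorted pool, not a clone, in which the exon of Tmpo specific to LAP2alpha, a nucleoplasmic partner of lamin A/C, had been targeted. Cells were proliferating in 20% serum (Prol), confluent in 20% serum (D0), or kept for 48 hours in 5% serum (D2, day 2). Each of the 6 groups had 3 polyA RNA-seq libraries, and no label says whether these came from separate cultures, so the p-values measure the spread between these libraries, which may be technical.

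Wnt proteins are secreted lipid-modified ligands that bind Frizzled receptors on the cell surface. In the canonical branch, ligand binding stops the degradation of beta-catenin, which then joins TCF/LEF factors on target genes. Other branches act on cell polarity and calcium. In skeletal muscle, Wnt signals take part in the forming of the embryonic muscle and in the commitment and fusion of adult myoblasts. Secreted Frizzled-related proteins such as Sfrp1 bind Wnts outside the cell, and Axin2 is a canonical target that acts back on the pathway as an inhibitor.

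The library totals were between 26437823 and 41619016 expected counts (median 32939620). Values are normalized CPM (counts scaled to a common library total) as deposited, and 3 counts, taken as the floor of detection, correspond to between 0.0651 and 0.119 CPM, for counting error only. Tmpo, counted over all its transcripts, was lower in KO than in WT in 9 of 9 same-numbered pairs of libraries, by between 0.0857% and 27.7%. Of the myoblast markers, Myf5 was between 11.6 and 37.1 CPM over the libraries and Ncam1 between 66.4 and 321 CPM. The lowest library value of the others was 0.736 CPM for Myod1, 0.878 CPM for Cdh15, 2.08 CPM for Des and 2.94 CPM for Itga7. Their highest values, in the same order, were 99.7, 189, 231 and 126 CPM. The sum of the myoblast markers was between 106 and 247 CPM in Prol and D0 and between 482 and 979 CPM at D2. Pax7 is not among the listed genes. The summed endothelial, immune and adipocyte markers were at most 2.46, 8.0 and 0.991 CPM. In all 6 groups the summed level of 7 fibroblast markers was highest in replicate 1. In WT D0 it was 5533 CPM there, against 787 and 953 CPM in the other libraries. By marker, replicate 1 was highest in 6 groups for Col1a1 and Postn and in 5 for Col3a1, Dcn and Pdgfra. It was highest in 2 groups for Lum and in 1 for Thy1. Of all tested genes, 12.4% had it highest in 6 groups. Among myoblast and muscle markers, it was highest in 5 groups for Ncam1 and in 4 for Des, Cdh15, Mymk, Myh3 and Ckm. For the others of those lists it was highest in 1 to 3 groups. Fibroblast markers also rose with differentiation: 7 of 7 were higher at D2 than in Prol in both genotypes. In each genotype 6 of them had an adjusted p under 0.05 (limma, Benjamini-Hochberg adjustment). Of all tested genes, 16.6% in WT and 17.1% in KO were higher by this criterion. Their sum was between 876 and 2786 CPM in WT Prol and between 1079 and 2302 CPM in KO Prol. At D2 it was between 6089 and 22382 CPM in WT and between 7972 and 28023 CPM in KO. The highest library value was 13453 CPM for Col1a1, 10452 CPM for Col3a1, 3812 CPM for Postn, 241 CPM for Pdgfra and 63.8 CPM for Dcn. For Lum it was 8.26 CPM and for Thy1 1.99 CPM. Fewer cells of a type and less RNA per cell cannot be told apart in bulk samples.

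The start of a gene is where its regulators are often looked for, so the upstream sequence of genes with higher levels at D2 in both genotypes is shown first. RefSeq promoter entries on GRCm38.p6 were matched for 6 of the 10 genes (Wnt9a, Wnt4, Fzd1, Fzd7, Axin2 and Lef1), and the 250 bases before the RefSeq start are printed for a ligand, a receptor and a target: Wnt9a (chr11:59306680-59306929, plus strand), Fzd1 (chr5:4758217-4758466, minus strand) and Axin2 (chr11:108920099-108920348, plus strand). Capitals mark the TCF/LEF core CTTTGA or its reverse complement TCAAAG, and the E-box CAGCTG, a form bound by myogenic factors, which reads the same on both strands.
Wnt9a: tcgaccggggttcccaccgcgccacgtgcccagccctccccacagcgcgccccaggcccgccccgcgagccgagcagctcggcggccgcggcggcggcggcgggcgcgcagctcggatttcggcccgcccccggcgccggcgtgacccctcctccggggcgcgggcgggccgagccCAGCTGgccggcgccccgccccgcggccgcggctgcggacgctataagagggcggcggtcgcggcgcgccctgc
Fzd1: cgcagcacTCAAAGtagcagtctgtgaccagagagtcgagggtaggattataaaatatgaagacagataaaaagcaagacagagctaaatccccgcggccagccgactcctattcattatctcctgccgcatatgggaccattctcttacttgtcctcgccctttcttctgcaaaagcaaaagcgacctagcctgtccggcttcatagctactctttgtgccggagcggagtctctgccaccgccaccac
Axin2: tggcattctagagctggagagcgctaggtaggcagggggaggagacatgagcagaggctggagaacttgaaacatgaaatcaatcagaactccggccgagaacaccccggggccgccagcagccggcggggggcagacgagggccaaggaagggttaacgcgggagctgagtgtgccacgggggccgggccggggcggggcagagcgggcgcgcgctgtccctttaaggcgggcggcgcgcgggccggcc

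The Wnt9a sequence held the E-box once, starting at position -74 from the start, and no TCF/LEF core. Fzd1 held the TCF/LEF core once, at position -242, and no E-box. Axin2 held neither motif in this window. Of 32851 promoter entries cut to the same 250 bases, 13.8% held the TCF/LEF core and 13.0% held the E-box on either strand, so a match in such a window is common. GC content was 84.4% for Wnt9a, 69.2% for Axin2 and 51.2% for Fzd1, against a median of 52.4% over all entries.

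Among the 4 ligands described here, Wnt9a had the largest difference in level between growing and differentiating cells. Wnt9a (ENSMUSG00000000126), a ligand known from joint and skeletal development, lies on chromosome 11 from 59306928 to 59333552 on the plus strand (GRCm38, GENCODE M21). Its level was 1.51, 2.51 and 2.14 CPM in the WT Prol libraries (replicates 1, 2 and 3) and 1.69, 1.30 and 1.115 CPM in the KO Prol libraries. At D0 it was 2.58, 2.01 and 1.43 CPM in WT and 2.41, 1.66 and 1.86 CPM in KO. At D2 it was 6.95, 14.0 and 9.74 CPM in WT and 4.66, 7.71 and 13.6 CPM in KO. All 6 D2 libraries were above all 12 others. The difference between D2 and Prol was 2.29 on the log2 scale (4.89-fold) in WT and 2.55 (5.84-fold) in KO, and that between D2 and D0 was 2.33 and 2.01. By mean level, the order from the lowest was KO Prol (1.37 ± 0.295 CPM, SD, n = 3), KO D0 (1.98 ± 0.390), WT D0 (2.01 ± 0.574), WT Prol (2.05 ± 0.504), KO D2 (8.67 ± 4.56) and WT D2 (10.2 ± 3.57). Neighbours in that order overlapped in their libraries except WT Prol and KO D2.

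**Figure D1:**
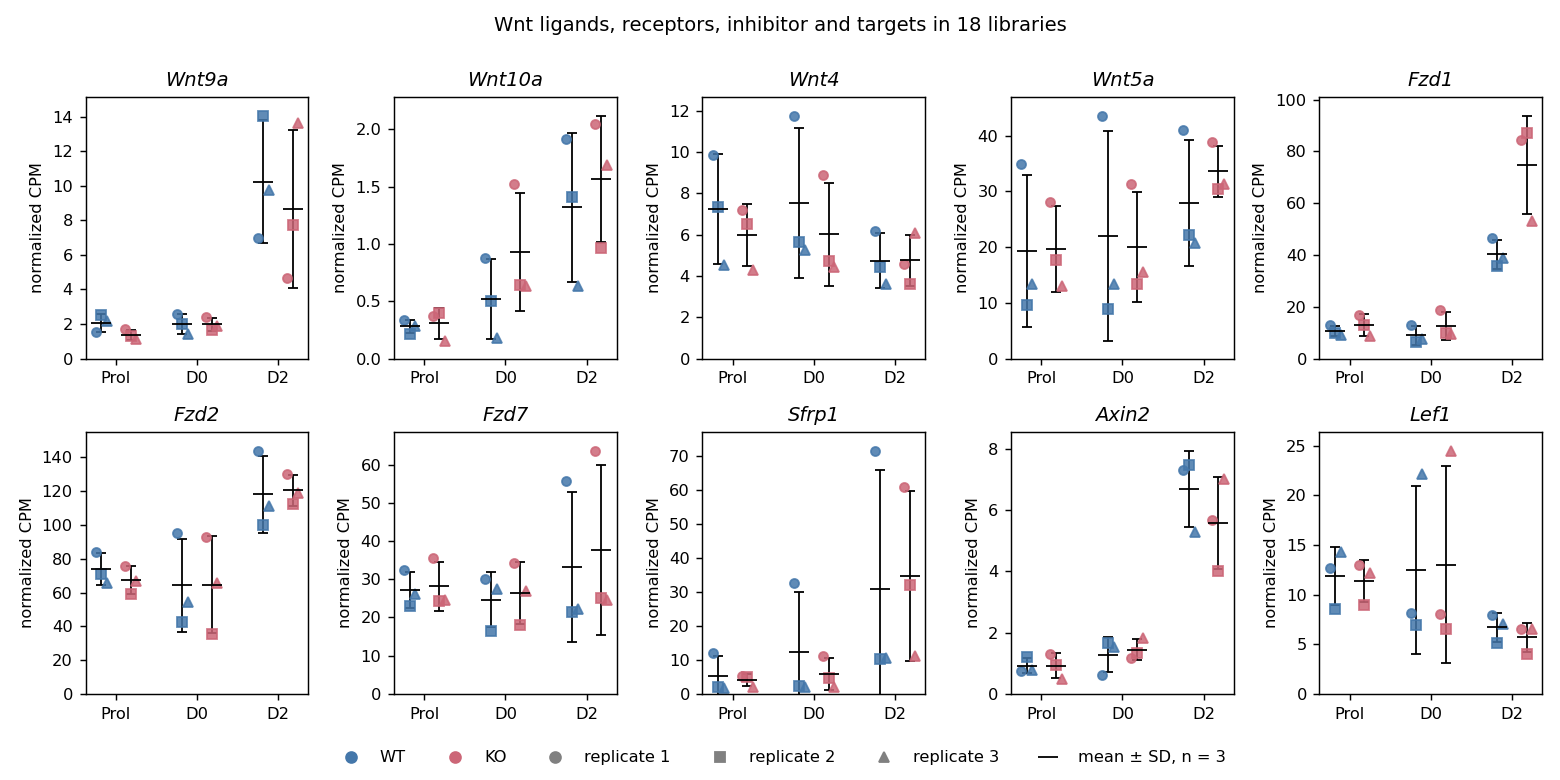
Normalized CPM (vertical axes, linear, from 0) of the 10 genes in the 18 libraries, by state (Prol, D0, D2) and genotype (blue WT, red KO), with the replicate as the symbol and the mean ± SD of 3 libraries in black. Wnt9a, Axin2, Fzd1 and Fzd2 lie higher in the 6 D2 libraries than in all others, while Sfrp1 and Wnt5a are highest in replicate 1 of every group.

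Wnt10a (ENSMUSG00000026167), a ligand needed for teeth and skin appendages, had a like pattern at far lower levels. It was at most 0.393 CPM in Prol, between 0.176 and 1.53 CPM at D0, and between 0.633 and 2.04 CPM at D2. Its difference between D2 and Prol was 2.12 in WT and 2.41 in KO (log2), and its lowest library, KO Prol replicate 3 at 0.150 CPM, was close to the floor of 3 counts. D2 libraries were above the Prol libraries of their genotype, but overlapped with D0.

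Wnt5a (ENSMUSG00000021994), the best known ligand of the non-canonical branches, was more abundant and varied widely between replicates. Its level was 34.95, 9.61 and 13.3 CPM in WT Prol, 28.1, 17.8 and 13.0 CPM in KO Prol, 41.0, 22.1 and 20.7 CPM in WT D2, and 38.89, 30.5 and 31.4 CPM in KO D2. Only in KO were the 3 D2 libraries all above the Prol libraries, by 0.84 on the log2 scale, while in WT the value was 0.69 and the libraries overlapped. Replicate 1 was the highest in 6 of 6 groups. Without the replicate 1 libraries the differences were 0.92 in WT and 1.03 in KO.

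Wnt4 (ENSMUSG00000036856), a ligand known for kidney tubule formation, was the one of the 4 ligands described here with a lower mean at D2 in both genotypes. It was between 4.31 and 11.8 CPM in Prol and D0 and between 3.60 and 6.20 CPM at D2, with a difference between D2 and Prol of -0.58 in WT and -0.33 in KO (log2), and the libraries of all 6 groups overlapped with those of their neighbours. Of its 50-base stretches, 3.85% occur in transcripts of other genes, so some of its reads could not be assigned by sequence alone.

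Levels of different genes were compared per length, as CPM per kilobase (kb) of annotated exon. Of the 13 ligands in the files, Wnt10b was the first in WT Prol (12.5 ± 5.13 CPM per kb, SD, n = 3, 67.1% of the sum over ligands) and also in WT D2 (5.01 ± 1.27, 31.7%), and it is named here after its values were seen. Wnt5a was the second in WT Prol (2.47 ± 1.75) and WT D2 (3.57 ± 1.45). Wnt9a made up 3.32% of the ligand sum in WT Prol, 19.5% in WT D2 and 16.2% in KO D2, and moved from the fourth to the third place.

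The receptors Fzd1, Fzd2 and Fzd7 are close relatives, but no 50-base stretch of their annotated transcripts occurred in a transcript of another gene, so reads of this length can be assigned to them. Fzd1 (ENSMUSG00000044674), on chromosome 5 from 4753839 to 4758035 on the minus strand in GENCODE M21, is a single exon of 4197 bases. RefSeq places its start further upstream, and the promoter sequence and motif position printed above are relative to the RefSeq start. It was 12.8, 9.78 and 9.23 CPM in WT Prol and 17.01, 12.8 and 8.54 CPM in KO Prol. At D0 it was 13.0, 6.25 and 7.47 CPM in WT and 18.6, 9.71 and 9.34 CPM in KO. At D2 it was 46.6, 35.6 and 38.8 CPM in WT and 84.4, 87.0 and 53.0 CPM in KO. The 6 D2 libraries were above the 12 others, and within D2 the 3 KO libraries were above the 3 WT libraries. The difference between D2 and Prol was 1.93 in WT and 2.57 in KO on the log2 scale. In order of mean level, WT D0 (8.92 ± 3.62 CPM, SD, n = 3), WT Prol (10.6 ± 1.93), KO D0 (12.6 ± 5.26) and KO Prol (12.8 ± 4.23) overlapped, and WT D2 (40.3 ± 5.66) and KO D2 (74.8 ± 18.9) each stood apart from the group before it.

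Fzd2 (ENSMUSG00000050288) was the most abundant of the 3 receptors in every library, also per length. It was between 35.4 and 95.5 CPM in Prol and D0, and 144, 99.7 and 111 CPM in WT D2 and 130, 112 and 119 CPM in KO D2. All D2 libraries were above all others, with differences between D2 and Prol of 0.67 in WT and 0.84 in KO (log2). Fzd7 (ENSMUSG00000041075), the receptor known to carry the Wnt7a signal in muscle stem cells, was 32.4, 23.1 and 26.1 CPM in WT Prol and 55.8, 21.5 and 22.3 CPM in WT D2. In KO it was 35.5, 24.2 and 24.6 CPM in Prol and 63.5, 25.0 and 24.6 CPM in D2. Its D2 means were set by replicate 1: the difference between D2 and Prol was 0.15 in WT and 0.30 in KO with all libraries, and -0.16 and 0.02 without replicate 1.

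**Figure D2:**
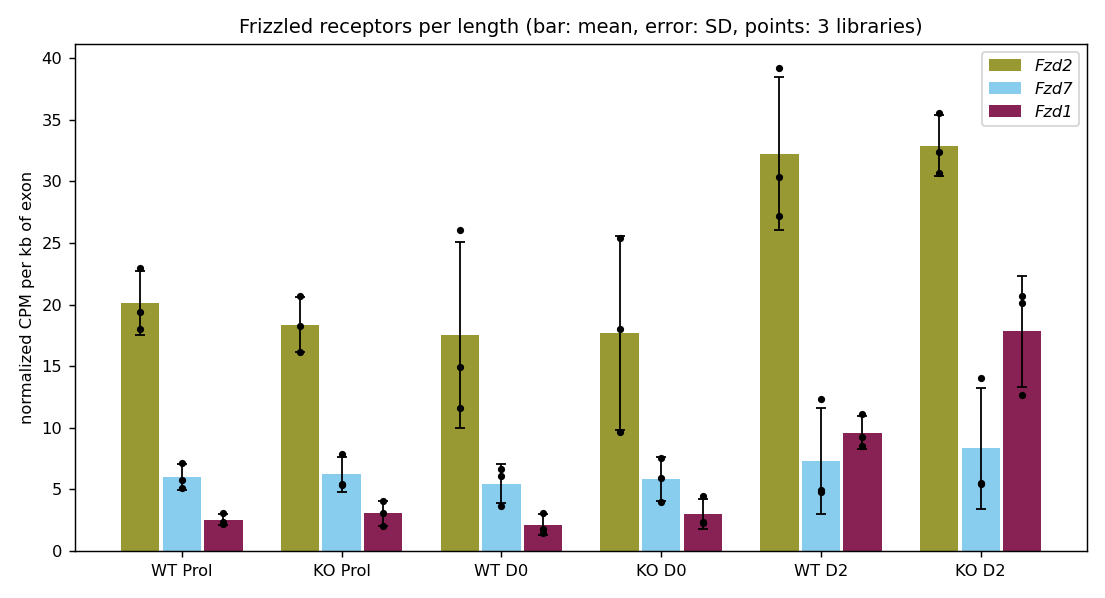
Level per length of Fzd2, Fzd7 and Fzd1 (vertical axis, normalized CPM per kb of exon, linear from 0) in the 6 groups, as mean (bar), SD (error bar) and the 3 libraries (points). Fzd1 is the lowest of the 3 in Prol and D0 and is above Fzd7 in 5 of the 6 D2 libraries.

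The share of Fzd1 in the summed level of these 3 receptors per length was 8.79% ± 0.370 (SD, n = 3) in WT Prol, 10.9% ± 2.62 in KO Prol, 19.8% ± 1.80 in WT D2 and 30.1% ± 5.79 in KO D2. The share of Fzd7 was 20.9% ± 1.69 in WT Prol and 14.2% ± 4.78 in WT D2. Per length, Fzd1 was below Fzd7 in all 12 Prol and D0 libraries and above it in 5 of 6 D2 libraries. Together the 3 made up 65.3% ± 1.03 of the summed level of the 9 Frizzled receptors in the files in WT Prol, 63.3% ± 2.49 in KO Prol, 78.6% ± 0.456 in WT D2 and 80.2% ± 1.91 in KO D2.

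Sfrp1 (ENSMUSG00000031548) was the gene with the widest spread. It was 11.9, 2.15 and 1.87 CPM in WT Prol, 32.7, 2.29 and 2.06 CPM in WT D0, and 71.4, 10.4 and 10.6 CPM in WT D2. In KO it was 5.39, 4.99 and 1.98 CPM in Prol, 11.1, 4.61 and 2.11 CPM in D0, and 61.0, 32.0 and 11.3 CPM in D2. Replicate 1 was the highest in 6 of 6 groups, and in WT D0 it was over the Prol libraries of both genotypes. The difference between D2 and Prol was 2.45 in WT and 2.90 in KO (log2), and 2.39 and 2.60 without the replicate 1 libraries. In KO the D2 libraries were above the Prol libraries, and in WT they overlapped.

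Axin2 (ENSMUSG00000000142), on chromosome 11 from 108920349 to 108950783 on the plus strand, was the target gene with the largest difference among the 10 genes in WT. Its level was 0.763, 1.21 and 0.793 CPM in WT Prol, 1.30, 0.959 and 0.483 CPM in KO Prol, 0.624, 1.67 and 1.54 CPM in WT D0, and 1.18, 1.32 and 1.82 CPM in KO D0. It was 7.31, 7.47 and 5.27 CPM in WT D2 and 5.67, 4.02 and 7.01 CPM in KO D2. The 6 D2 libraries were above the 12 others, with differences between D2 and Prol of 2.87 in WT (7.33-fold) and 2.68 in KO (6.42-fold) on the log2 scale.

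Lef1 (ENSMUSG00000027985), a TCF/LEF factor that is often itself a target of the pathway, differed in the other direction. It was 12.7, 8.59 and 14.3 CPM in WT Prol and 13.0, 8.95 and 12.2 CPM in KO Prol, and 7.92, 5.09 and 7.06 CPM in WT D2 and 6.57, 4.05 and 6.58 CPM in KO D2. The D2 libraries were below the Prol libraries in both genotypes, by 0.82 in WT and 1.01 in KO on the log2 scale. At D0, replicate 3 stood out with 22.2 CPM in WT and 24.4 CPM in KO, against between 6.57 and 8.15 CPM in the other D0 libraries. The annotation places other genes over part of Axin2 (Gm11670), Wnt5a (Gm2670) and Lef1 (Gm42449 and Gm43352). Per the methods, libraries and counting were strand-specific, which does not separate genes that overlap on the same strand.

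Across the 10 genes, the D2 libraries lay above the Prol libraries without overlap for 5 genes in WT and 7 in KO, and below them for 1 gene (Lef1) in each. Of all tested genes, 43.5% in WT and 47.7% in KO did not overlap between these states in either direction (in WT 23% were higher at D2 and 20.5% lower, in KO 25.1% and 22.6%), and since the genes were chosen with this contrast in view nothing is read from the count. The median difference of the 10 genes was 1.31 in WT and 1.63 in KO, beside -0.012 and 0.024 over all tested genes. For the same reason nothing is read from these medians. WT D2 and KO D2 were each compared with their own Prol libraries.

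The KO against WT comparison asked whether loss of LAP2alpha changes these levels in a given state. Genes were called with an unadjusted p under 0.05, a change of over 1.5-fold and 10 CPM in at least 1 library (limma). At D2, 1 of the 10 genes, Fzd1, met these criteria, beside 0.464% of all 17672 genes tested, and 0.209% with the level higher in KO. Its log2 fold change was 0.87 (standard error 0.33, 95% interval 0.16 to 1.57, 1.82-fold higher in KO, unadjusted p = 0.0195 in limma), and the libraries did not overlap, as for 6.17% of all genes (2.35% with KO higher). The p adjusted over all genes tested was 1.00, as no gene in this comparison had an adjusted p under 0.05 and 1.96% had an unadjusted p under 0.05. The value was 0.78 and not called without WT D2 replicate 2, 0.76 without KO D2 replicate 1 and 0.74 without KO D2 replicate 2, and 0.87 and called without all replicate 1 libraries.

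**Figure D3:**
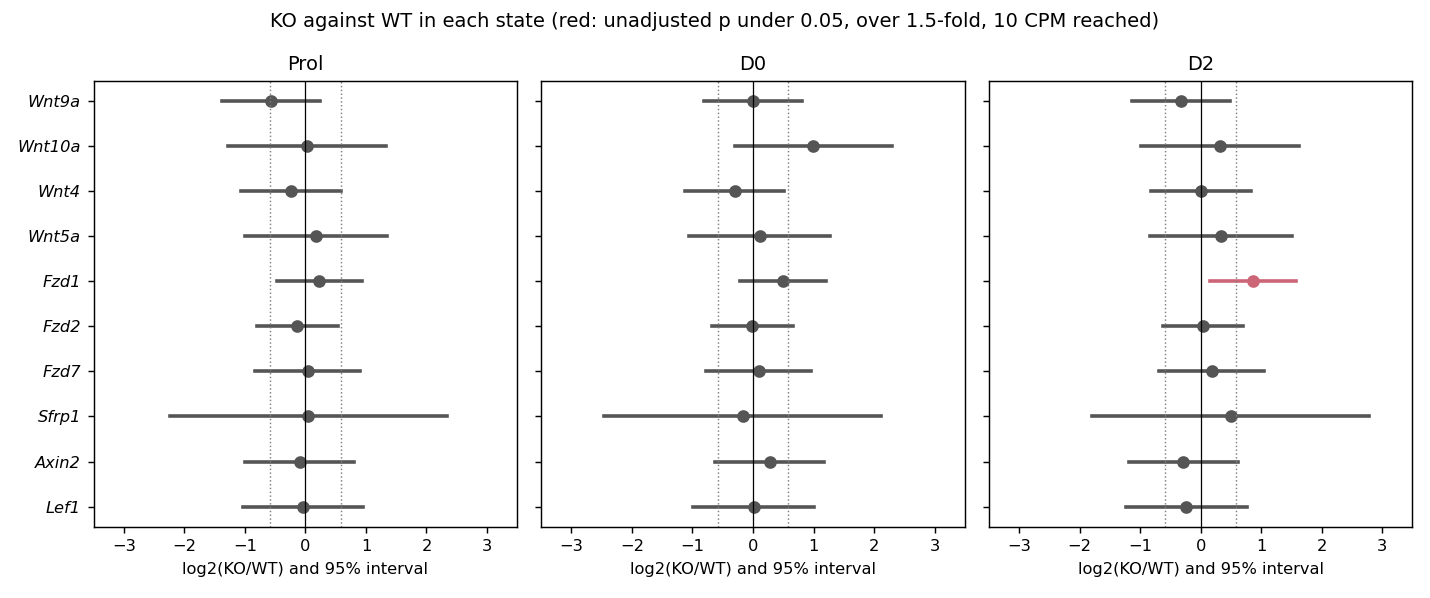
Log2 fold change of KO over WT (horizontal axis) with its 95% interval for the 10 genes in Prol, D0 and D2, from the limma fit over all 18 libraries; dotted lines mark 1.5-fold, and red marks the gene that met the criteria. Fzd1 at D2 (0.87, interval 0.16 to 1.57) is the point whose interval lies above 0.

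The same comparison was made for markers of muscle differentiation. The summed level of 7 such genes was between 2799 and 5480 CPM in WT D2 and between 1662 and 2226 CPM in KO D2. Of these, 7 of 7 were lower in KO and 1 of 7 was called. Over all genes tested, 0.464% were called and the median log2 fold change was -0.013. The summed fibroblast markers overlapped at D2, with 6 of 7 higher in KO and 0 of 7 called. Their part in the Fzd1 result was not tested. Over the 18 libraries, taken as deviations from the group means, Fzd1 had a correlation of 0.87 with the summed fibroblast markers and 0.47 with the summed muscle markers, which is a description of libraries that share replicate numbers.

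The relatives of Fzd1 did not show a difference at D2 that the spread allows to be seen. For Fzd2 the log2 fold change of KO over WT was 0.04 (95% interval -0.62 to 0.71), and for Fzd7 it was 0.18 (-0.69 to 1.05). For Wnt9a it was -0.32 (-1.13 to 0.49), for Wnt5a 0.33 (-0.84 to 1.503), and for Sfrp1 0.49 (-1.79 to 2.78). The targets Axin2 and Lef1 had values of -0.28 (-1.18 to 0.62) and -0.24 (-1.23 to 0.76). These intervals are wide enough to hold a 1.5-fold difference in at least 1 direction, so no likeness of the genotypes is shown.

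In Prol, none of the 10 genes was called between KO and WT (limma, 0 called with voom weights), beside 0.113% of all genes, and 0 had an unadjusted p under 0.05, beside 1.11%. The value furthest from 0 was that of Wnt9a, at -0.57 (standard error 0.38, 95% interval -1.39 to 0.24), with KO libraries between 1.115 and 1.69 CPM and WT libraries between 1.51 and 2.51 CPM. Without all replicate 1 libraries it was -0.94 (unadjusted p = 0.0170 in limma), under the minimum of CPM. Fzd1 was at 0.23 (-0.48 to 0.94). At D0, again none was called (limma, 0 called with voom weights), beside 0.209% of all genes, and 0 had an unadjusted p under 0.05, beside 1.47%. Wnt10a was at 1.00 (-0.30 to 2.30), and Fzd1 at 0.49 (-0.22 to 1.198). Without WT D0 replicate 1, Fzd1 was called at D0, with a log2 fold change of 0.80 (unadjusted p = 0.0312 in limma).

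Whether the KO effect differed between D2 and Prol was tested as a difference of differences. None of the 10 genes was called (limma, 0 with voom weights), beside 0.232% of all genes, and 0 had an unadjusted p under 0.05, beside 0.945%. Fzd1 had the value furthest from 0, at 0.64 (standard error 0.47, 95% interval -0.36 to 1.64, unadjusted p = 0.196 in limma), so the KO effect on Fzd1 was not shown to be specific to D2. In the fit blocked by replicate number, this value was called (unadjusted p = 0.0403 in limma, adjusted p = 1 over all genes).

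Confluence alone was examined as D0 against Prol. In WT none of the 10 genes was called (limma, 0 with voom weights), beside 0.226% of all genes, and 0 had an unadjusted p under 0.05, beside 2.17%. Axin2 was at 0.38 (95% interval -0.52 to 1.28). In KO none was called either (0 with voom weights), beside 0.108% of all genes, and 1 gene had an unadjusted p under 0.05, beside 1.12%. This was Wnt10a, whose KO D0 libraries, at 1.53, 0.641 and 0.629 CPM, were above its KO Prol libraries, at 0.375, 0.393 and 0.150 CPM, as for 2.41% of all genes (log2 fold change 1.60, standard error 0.61, unadjusted p = 0.0189 and adjusted p = 1.00 in limma). It stayed under the minimum of 10 CPM and so was not called. In WT the value for Wnt10a was 0.63 (-0.67 to 1.93). Axin2 in KO was at 0.75 (-0.15 to 1.65), and at 1.19 (unadjusted p = 0.0187 in limma) without all replicate 1 libraries, also under the minimum of CPM. D0 and D2 were each compared with the same Prol libraries.

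The rest of the pathway was read from a list of 92 other Wnt genes, of which 78 were in the files and 76 were tested. Between D2 and Prol, 23 of 76 were called in WT (14 higher and 9 lower), which is 30.3% beside 23.6% of all genes (10.8% higher and 12.8% lower), and 20 of 76 in KO (14 higher and 6 lower), which is 26.3% beside 24.9% (11.3% higher and 13.7% lower). By an adjusted p under 0.05 (limma), 19 rose and 9 fell in WT, 28 of 76 in all, beside 30.7% of all genes (16.6% up, 14.1% down). The same criterion gave 20 that rose and 5 that fell in KO, 25 in all, beside 32.3% (17.1% up, 15.2% down). Between D2 and D0, 20 were called in WT (26.3% beside 20.7%) and 19 in KO (25% beside 22.6%). With both directions counted, these shares were above those of all genes, by less in KO than in WT. Between D2 and Prol, the share that was higher was above that of all genes by both criteria in both genotypes. The share that was lower was below that of all genes, most clearly in KO. These differences from all genes were not tested, and the gene list was chosen with earlier results known. The median difference between D2 and Prol over the 76 genes was 0.41 in WT and 0.36 in KO, beside -0.012 and 0.024 over all tested genes.

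**Figure D4:**
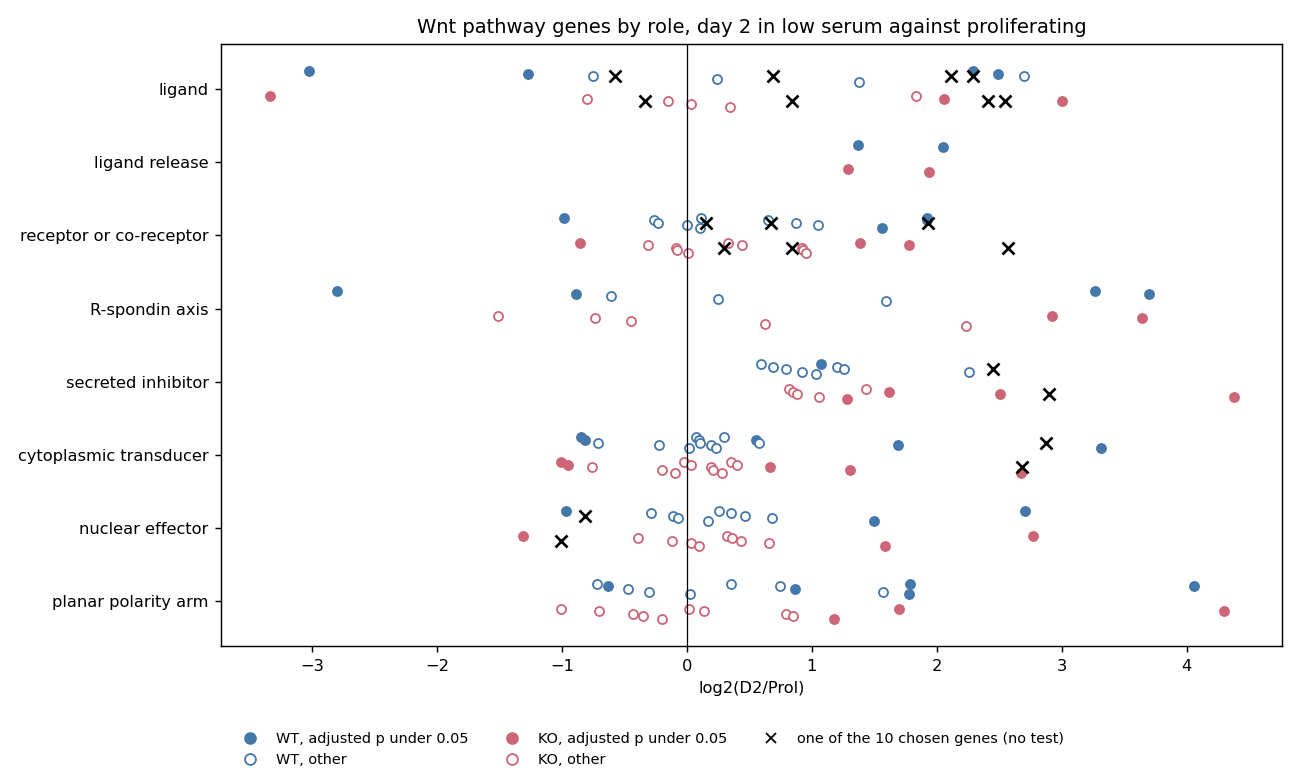
Log2 difference between D2 and Prol (horizontal axis) of the 76 other tested Wnt pathway genes, by role and genotype (blue WT above, red KO below), filled where the limma adjusted p was under 0.05; crosses are the 10 genes described here, without a test, with Axin2 among the cytoplasmic transducers. The role plotted as secreted inhibitor also holds the membrane proteins Kremen1, Kremen2 and Apcdd1. Its 9 tested genes lie to the right of 0 in both genotypes. By the adjusted p, 1 of the 9 rose in WT (Kremen1) and 4 in KO, beside 16.6% and 17.1% of all genes. Both genes of ligand release also lie to the right of 0, and the other roles lie on both sides.

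Genes of ligand release rose in both genotypes. Porcn, the enzyme that attaches the lipid to Wnt proteins, was between 2.84 and 5.04 CPM in Prol and D0 and between 10.3 and 16.7 CPM at D2, with log2 fold changes between D2 and Prol of 2.05 (standard error 0.26) in WT and 1.94 (0.26) in KO. Wls, the carrier that brings them to the cell surface, rose by 1.37 (0.24) in WT and 1.29 (0.24) in KO. The adjusted p was between 2.41e-05 and 6.46e-04 for these 4 values in limma. Both genes are needed for cells to send out Wnt ligands.

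By the adjusted p, 16.6% of all tested genes rose and 14.1% fell in WT, and 17.1% rose and 15.2% fell in KO. The counts by role are small and are given beside these shares as a description. Among the other ligands, 2 of 8 rose and 2 fell in WT by this criterion, and 2 rose and 1 fell in KO. In both genotypes, those that rose were Wnt2b and Wnt5b, and Wnt1 fell. Of the other receptors, 3 of 12 rose and 1 fell in WT, and 2 rose and 1 fell in KO. Fzd6, a Frizzled known from planar polarity, was the one that fell, with -0.98 (0.28) in WT and -0.86 (0.28) in KO. Without the replicate 1 libraries Fzd6 was at -0.68 in KO and not called.

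The R-spondin axis sets the number of Wnt receptors on the cell surface. By the adjusted p, 2 of its 7 genes rose (Lgr5 and Rspo3) and 2 fell (Lgr6 and Znrf3) in WT. In KO, 2 rose (Lgr5 and Rspo3) and 0 fell. The shares of all genes were 16.6% up and 14.1% down in WT, and 17.1% and 15.2% in KO. Lgr6, an R-spondin receptor named after its values were seen, was at -2.80 (standard error 0.75, adjusted p = 0.00954 in limma) in WT and -1.51 (0.75, adjusted p = 0.140 in limma) in KO, and the difference between the genotypes, tested as the KO effect at D2 against Prol, was 1.29 (95% interval -0.96 to 3.53, unadjusted p = 0.241 in limma). Rspo3 rose from between 0.658 and 1.73 CPM in Prol to between 8.08 and 17.2 CPM at D2. Its log2 fold change was 3.27 (standard error 0.78) in WT and 3.64 (0.78) in KO. Without WT D2 replicate 1 it stayed under 10 CPM in WT and was not called. Daam2, a formin that acts downstream of Dishevelled, had the largest change among the genes named from the pathway list by the naming rule, with 4.06 (0.56) in WT and 4.30 (0.56) in KO, from between 2.18 and 6.30 CPM in Prol to between 52.1 and 73.2 CPM at D2. Prickle2, of the planar polarity arm, rose by 1.78 (0.51) in WT and 1.70 (0.51) in KO.

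Of the planar polarity arm, 4 of 12 rose and 1 fell in WT, and 3 rose and 0 fell in KO. The 12 also hold Nfatc1, Nfatc2 and Nfatc3, which belong to the calcium branch and were not among those that rose or fell. In the cytoplasm and nucleus the changes went both ways. Of the cytoplasmic transducers 3 of 15 rose and 2 fell in each genotype, and of the nuclear effectors 2 of 11 rose and 1 fell in each. Over all tested genes, 16.6% rose and 14.1% fell in WT, and 17.1% rose and 15.2% fell in KO. Nothing is read from these small counts by role. Tle2, a co-repressor of TCF/LEF factors, rose by 2.71 (0.68) in WT and 2.77 (0.68) in KO. Tcf7, a TCF/LEF factor like Lef1, changed by -0.97 (0.31) in WT and -1.31 (0.31) in KO. Gsk3a, a kinase of the complex that marks beta-catenin for degradation, changed by -0.84 (0.26) and -0.95 (0.26). Ctnnbip1, which keeps beta-catenin from TCF/LEF factors, changed by -0.82 (0.17) and -1.01 (0.17). The naming rule required an adjusted p under 0.05 in limma and no overlap of libraries in both genotypes. That Tle2, Tcf7, Gsk3a and Ctnnbip1 meet these criteria is therefore no added support. Of all tested genes, 43.5% in WT and 47.7% in KO did not overlap between D2 and Prol.

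Canonical targets did not move one way. Beside Axin2 and Lef1, the list of such targets held 14 genes, of which 12 were tested, and 8 of them overlap with the pathway list. By the adjusted p, 3 rose (Nkd1, Nkd2 and Lgr5) and 5 fell (Ccnd1, Myc, Tcf7, Bambi and Znrf3) in WT, and 4 rose (Nkd1, Nkd2, Lgr5 and Apcdd1) and 5 fell (Ccnd1, Myc, Tcf7, Bambi and Tnfrsf19) in KO. These are 8 and 9 of 12, beside 30.7% and 32.3% of all genes by the same criterion (16.6% up and 14.1% down in WT, 17.1% and 15.2% in KO), in a list chosen with earlier results known. Nkd1, which like Axin2 acts back on the pathway as an inhibitor, rose by 3.31 (0.31) in WT and 2.68 (0.31) in KO, from at most 1.21 CPM in Prol to between 4.96 and 10.9 CPM at D2. Ccnd1, which drives entry into the cell cycle, changed by -3.03 (0.44) in WT and -2.64 (0.44) in KO. Myc, a growth regulator with many inputs, changed by -1.27 (0.38) and -1.30 (0.38). Apart from Tcf7, these targets are named after their values were seen. The median over the 12 was 0.02 in WT and 0.05 in KO.

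Between KO and WT at D2, 1 of the 76 other pathway genes was called, which is 1.32% beside 0.464% of all genes. This was Dkk2, which blocks the Wnt co-receptors Lrp5 and Lrp6. It was 2.16, 4.90 and 8.76 CPM in WT D2 and 15.5, 15.3 and 11.7 CPM in KO D2, without overlap, and at most 4.63 CPM in Prol and D0. The log2 fold change was 1.64 (standard error 0.46, unadjusted p = 0.00278 and adjusted p = 1.00 in limma). In the fit blocked by replicate number, 3 of 76 were called at D2, Dkk2, Ror2 and Sfrp2. In Prol and at D0 none of the 76 was called (limma, 0 at an unadjusted p under 0.05 in each).

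Within groups, several of the 10 genes varied together with the replicate. Replicate 1 was the highest in 6 of 6 groups for Wnt5a, Fzd2, Fzd7 and Sfrp1, beside 12.4% of all tested genes, and in 5 of 6 for Wnt4, Wnt10a and Fzd1. Wnt9a and Axin2 did not have this pattern, with replicate 1 the highest in 3 and 1 groups. As deviations from group means over the 18 libraries, the correlation with the summed fibroblast markers was 0.96 for Sfrp1, 0.91 for Wnt5a, 0.87 for Fzd1, -0.18 for Wnt9a and -0.35 for Axin2. These values describe libraries that share replicate numbers, and no test was made of them.

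**Figure D5:**
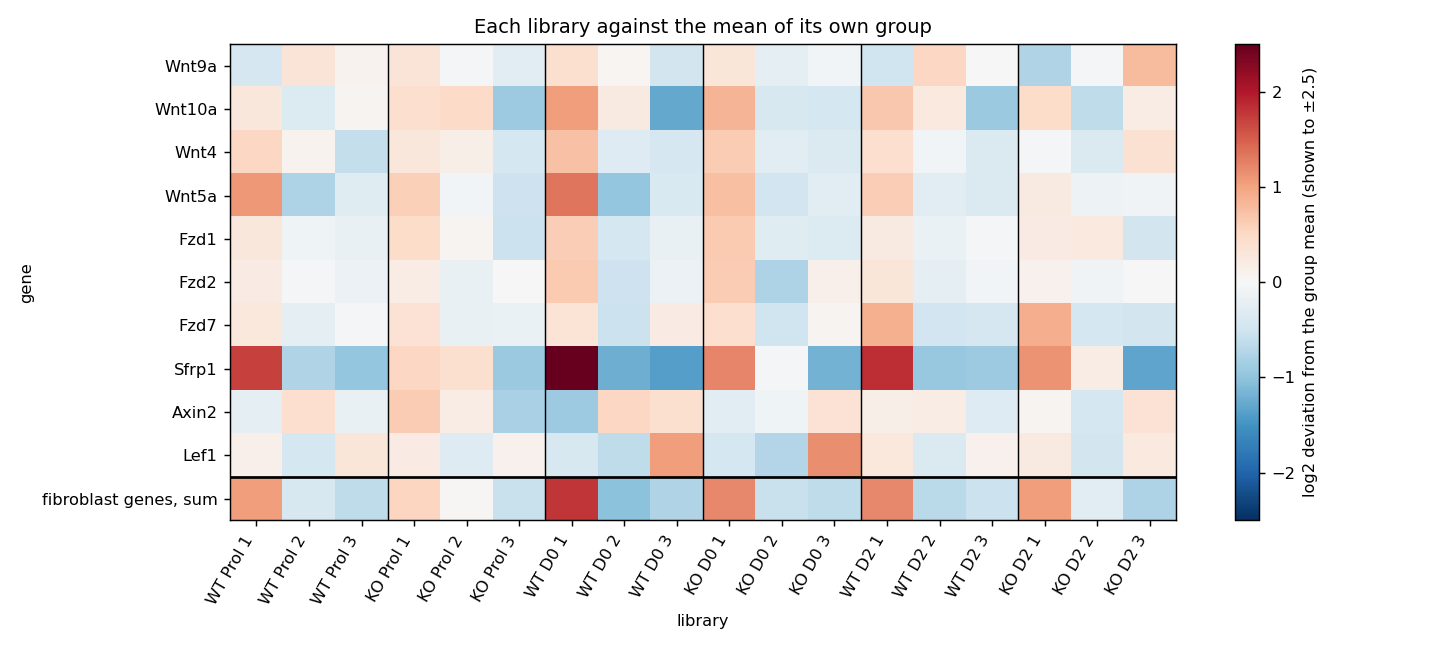
Deviation of each library from the mean of its own group on the log2 scale (colour, red above and blue below, shown to 2.5) for the 10 genes and, below the line, for the summed level of 7 fibroblast markers. Replicate 1 columns are red for Sfrp1, Wnt5a, Fzd2 and Fzd7, as for the summed fibroblast markers. For Wnt9a and Axin2, replicate 1 lies above the group mean in some groups and below it in others.

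Wnt9a and Axin2 had a Pearson correlation of 0.89 over the 18 libraries on the log2 scale, and of 0.10 within groups, so their likeness was between states and not between replicates. Wnt5a and Sfrp1 had 0.89 over all libraries and 0.88 within groups. Of 10758 genes that reached 10 CPM, those most like Wnt9a over the 18 libraries were Cep41 (0.96), Enho (0.96), Enpp5 (0.96), Retreg1 (0.96) and Csdc2 (0.96), and those most like Fzd1 were Cped1 (0.98), Ctsf (0.97) and Slc36a1 (0.97). These points share the states and libraries and are given as a description.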

How the data were processed

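RNA of 18 libraries (6 groups of 3) was measured by polyA RNA-seq with 50-base single-end reads. Per the methods, the authors used cutadapt for trimming, NextGenMap for mapping (GRCm38 transcripts) and RSEM for estimated counts, then removed genes with low counts and scaled libraries with TMM factors from edgeR. The deposited files hold CPM relative to those scaled totals, made after adding 0.5 to every expected count. Since between 34.9% and 47.2% of the recovered counts under 20 were within 0.001 of a whole number, the values come from estimated counts and were tested on the log2 scale without a further pseudocount, where small values carry the added 0.5 counts.

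Genes that passed 5 expected counts in each of the 3 libraries of some group were fitted with limma 3.58.1 in R 4.3.3 (lmFit, eBayes with a trend), with 1 factor of 6 groups over all 18 libraries. Adjusted p-values are by Benjamini-Hochberg over all 17672 genes. The fit was tested on simulated data. The members and gene lists (Wnt pathway, canonical targets, myoblast, differentiating muscle, fibroblast, endothelial, immune and adipocyte markers) were chosen with earlier results of these data known. Named genes were the 10 members, for D2 against Prol up to 2 other pathway genes per role with the largest change in WT that were called by both criteria in both genotypes without overlap, for KO against WT every pathway gene called, and the 5 and 3 genes most like Wnt9a and Fzd1; others are marked in the text.

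Same-numbered libraries deviated together, with a correlation across genes over 0.1 in 25 of 27 pairs (0.01 to 0.645), including every pair of KO and WT. The exceptions were replicate 3 in WT D2 against Prol and against D0. The authors used the sequencing lane as a block; the labels used here do not give it. Exon lengths and positions are from GENCODE M21 and promoters from RefSeq. Figures were drawn with matplotlib in Python. The alternatives were other scaling, voom weights, no filter, a replicate block, only the groups compared, 1 CPM added, other thresholds and each library left out. Leaving out all replicate 1 libraries was chosen after seeing the data.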

Additional observations from a re-analysis of the deposited data

Results flagged for a closer look

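The KO effect on Dkk2 differed between D2 and Prol, by 1.91 on the log2 scale (unadjusted p = 0.0103 in limma, adjusted p = 1 over all genes), and was flagged because this difference between states was itself tested. Dkk2 was 2.16, 4.90 and 8.76 CPM in WT D2 and 15.5, 15.3 and 11.7 CPM in KO D2, while in Prol it was 4.63, 1.88 and 3.09 CPM in WT and 4.24, 2.03 and 1.78 CPM in KO. Dkk2 is 1 of the 76 other pathway genes and was called here by the unadjusted criteria, which 0.232% of all genes met. It was not called by an adjusted p under 0.05. By the unadjusted criteria it remained called in every alternative fit that was run for it, with values between 1.37 and 2.38.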

How the results depend on the processing

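Of the 60 log2 fold changes of the 10 genes in the 6 tested comparisons, 17 kept their sign in every alternative, 43 changed it with at least 1 single library left out, 5 of these also with all libraries in the fit, and the largest value that changed was 0.56 in size. The call of Fzd1 at D2 was lost with a log2 fold change over 1.5 as criterion (0 of 10 genes called) and with an adjusted p under 0.05 (0 of 10); with each library left out in turn, between 0 and 1 were called at D2, as at D0. With the replicate block Fzd1 at D2 had an adjusted p of 0.356 (limma, fixed block) and 0.192 (voom, random block), within a range of 0.192 to 1 over all alternatives; the fixed block called 1 gene (Fzd1) in the test of the KO effect at D2 against Prol, and the block changed no other call of the 10 genes. Without the minimum of CPM, 1 gene (Wnt10a) was called in KO at D0 against Prol. With single libraries left out, log2 fold changes that changed sign ranged from -0.00364 to 0.49 for Fzd1 in KO against WT in Prol, and at D2 from -0.072 to 0.19 for Fzd2, -0.27 to 0.63 for Fzd7, -0.71 to 0.061 for Wnt9a and -0.065 to 1.42 for Sfrp1. Among the 76 other pathway genes, KO against WT at D2 gave between 1 and 2 calls with single libraries left out, 3 with the fixed block, 3 with the random block, 3 without all replicate 1 libraries, 5 without the minimum of CPM and 0 by an adjusted p. With a log2 fold change over 1.5, calls were 10 in WT and 7 in KO for D2 against Prol, and 9 in WT and 6 in KO for D2 against D0; without the minimum of CPM, 31 and 30 in KO. Scaling by library totals alone moved the median of all genes between D2 and Prol in WT from -0.012 to 0.150 and in KO from 0.024 to 0.156, and the differences above are relative to the main scaling. Adding 1 CPM lowered the differences of the genes near 1 CPM, to 2.00 in WT and 1.79 in KO for Axin2 and to 0.83 in WT and 0.97 in KO for Wnt10a. The causes were not tested. At these depths the levels of Wnt10a in Prol rest on few counts.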

Other observations

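Some other pathway genes at low levels differed between KO and WT at D2 by an unadjusted p under 0.05 but did not reach 10 CPM, and are named after their values were seen. Sfrp4, a secreted inhibitor related to Sfrp1, was 0.312, 1.28 and 0.717 CPM in WT D2 and 8.46, 4.805 and 0.668 CPM in KO D2 (log2 fold change 2.19, standard error 0.86), with the libraries overlapping. Fzd9, a Frizzled receptor, was 3.91, 2.42 and 2.52 CPM in WT D2 and 1.16, 1.03 and 1.53 CPM in KO D2 (log2 fold change -1.23, standard error 0.43), without overlap. All adjusted p-values in this comparison were 1.00 (limma).

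Per length, Sfrp2 was the first among 11 genes listed as secreted inhibitors in the files, a list that also holds the membrane proteins Kremen1, Kremen2 and Apcdd1. It was at 46.9 ± 6.44 CPM per kb (SD, n = 3) in WT Prol, 80.3 ± 38.1 in WT D2 and 130 ± 40.2 in KO D2, where Sfrp1 was at 7.95 ± 5.70. Wnt10b, per length the first among the ligands in all 6 groups, was between 25.0 and 62.3 CPM in Prol and between 9.86 and 23.3 CPM at D2, and its log2 fold change between D2 and Prol was -1.27 (standard error 0.42, adjusted p = 0.0294 in limma) in WT and -0.80 (0.42, adjusted p = 0.164 in limma) in KO.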
